A study of Mus musculus with 6 samples.

Results

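Accessible chromatin was described at the 9 mouse genes that encode the canonical Notch receptors (*Notch1*, *Notch2*, *Notch3* and *Notch4*) and their DSL ligands (*Dll1*, *Dll3*, *Dll4*, *Jag1* and *Jag2*). An interval of a peak list was assigned to one of these genes when the transcription start site (TSS) nearest to its strongest summit, among the TSSs of 21938 protein-coding genes, belonged to that gene and lay at most 50 kb away. The rule gave 66 of the 82885 intervals in parent neural stem/progenitor cells (NSPCs) and 46 of the 107480 intervals in NSPCs that lack the *Sox2* enhancer cluster SRR2–18. The rule selects genes by name and intervals by position, not by how they differed between the genotypes.

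ATAC-seq uses a transposase that inserts sequencing adapters into open chromatin, so that reads pile up at accessible promoters and enhancers. Nuclei came from 3 cultures of each genotype, with 30000 cells and 50 to 60 M reads per culture according to the labels. The parent cells (clone 5B) were NSPCs derived from embryonic stem cells of a 129S1/Cast F1 hybrid, with a Sox2-mCherry tag on the 129 allele and no deletion. ΔSRR2–18 cells (clone 47D) had the same hybrid background and the same tag, and carried in addition a homozygous SRR2-18 deletion made with Cas9. Both were grown in N2B27 medium with EGF and bFGF. Each genotype is thus represented by 1 clone, and a difference between the genotypes cannot be told apart from a difference between the clones. The peak lists are pooled over the cultures of a genotype. Values therefore come without replicate error, and differences between the genotypes could not be tested.

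Notch is a receptor that is cut when a ligand on a neighbouring cell pulls on it. The freed intracellular domain enters the nucleus, joins the DNA-binding protein RBPJ and a Mastermind coactivator, and switches on repressors of the *Hes* and *Hey* families. In the developing brain this pathway keeps progenitors from differentiating, while the cells that enter the neuronal lineage present Delta-like ligands to their neighbours.

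Intervals within 1 kb of a TSS are called promoter intervals and the others distal. An interval is shared when it overlaps an interval of the other genotype by at least 1 bp, and otherwise specific to its genotype. Positions are distances in kb from the TSS of the named gene, negative when upstream. Coordinates are mm10. The strength of an interval is the number of reads piled up at its summit, recovered from the deposited values and divided by the genome-wide mean background of its list, which was 38.8 reads in parent and 19.7 reads in ΔSRR2–18 NSPCs. This division sets the lists, which differ 1.98-fold in depth by that measure, on a common scale. Over all 39072 shared regions the median log2 ratio of ΔSRR2–18 to parent on this scale was −0.24, with −0.45 at promoters and 0.00 at distal regions, and changes at the Notch genes are to be read against these values. As a check of the cell type, all 8 neural progenitor markers (*Sox1*, *Sox2*, *Nes*, *Pax6*, *Vim*, *Fabp7*, *Msi1* and *Slc1a3*) had a promoter interval in both lists. So had 11838 of the 21938 protein-coding genes. The promoter strengths of all 8 markers were lower in ΔSRR2–18 than in parent NSPCs, as at *Vim* (102 against 105), *Sox2* (36.2 against 115) and *Sox1* (12.1 against 51.6). So were most shared promoter regions, whose upper quartile of the log2 ratio was −0.145. Of 4 pluripotency markers only *Esrrb* had a promoter interval in either genotype, whereas *Pou5f1*, *Nanog* and *Zfp42* had none. The endothelial marker *Kdr* (1 of 3), the mesoderm markers *Tbx6* and *Meox1* (2 of 2) and the neuronal marker *Tubb3* had promoter intervals in both lists, and the neuronal *Rbfox3* only in the ΔSRR2–18 list.

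The reference sequence of 10 regions is given first because the results turn on them. Each line holds the 201 bases centred on the strongest summit, read from GRCm38.p6 on the plus strand, with the motif words searched below in capitals. By summit reads, the strongest parent-specific interval of the 9 genes lay in an intron of *Notch1* (chr2:26487829-26488029). By fold enrichment over the local background it was at −36.6 kb of *Jag1* (23.2, against 7.89 for the *Notch1* interval). The strongest ΔSRR2–18-specific interval by either measure lay upstream of *Notch2*, in an intron of *Gm5544* (chr3:97964963-97965163).

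Notch1 +15.9 kb: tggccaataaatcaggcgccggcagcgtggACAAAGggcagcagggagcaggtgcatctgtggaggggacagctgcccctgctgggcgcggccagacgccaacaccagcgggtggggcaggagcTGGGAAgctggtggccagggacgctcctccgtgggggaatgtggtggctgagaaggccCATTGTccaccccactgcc

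Notch2 −48.5 kb: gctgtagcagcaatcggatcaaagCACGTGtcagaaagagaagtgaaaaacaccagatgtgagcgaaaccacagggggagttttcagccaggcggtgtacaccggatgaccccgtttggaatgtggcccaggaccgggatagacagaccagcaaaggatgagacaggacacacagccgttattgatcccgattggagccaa

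The 3 shared regions with the largest loss of depth-scaled reads in ΔSRR2–18 NSPCs were intergenic DNA upstream of *Notch1* (chr2:26533399-26533599), an intron of *Notch1* (chr2:26500873-26501073) and an intron of *Notch2* (chr3:98043119-98043319).

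Notch1 −29.7 kb: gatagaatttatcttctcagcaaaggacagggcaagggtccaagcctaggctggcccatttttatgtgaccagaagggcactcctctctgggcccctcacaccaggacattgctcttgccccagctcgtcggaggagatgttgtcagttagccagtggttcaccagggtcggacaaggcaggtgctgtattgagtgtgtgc

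Notch1 +2.85 kb: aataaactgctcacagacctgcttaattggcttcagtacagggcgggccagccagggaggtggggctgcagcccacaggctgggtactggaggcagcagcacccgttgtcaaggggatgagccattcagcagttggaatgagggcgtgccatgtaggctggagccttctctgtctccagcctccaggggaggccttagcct

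Notch2 +29.7 kb: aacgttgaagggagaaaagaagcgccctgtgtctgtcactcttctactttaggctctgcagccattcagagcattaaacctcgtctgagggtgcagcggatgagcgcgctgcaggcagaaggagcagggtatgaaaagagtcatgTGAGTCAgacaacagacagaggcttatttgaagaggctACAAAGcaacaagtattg

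The 3 shared regions with the largest gain were downstream of *Jag1* in a coding exon of *Slx4ip* (chr2:137067781-137067981), intergenic DNA downstream of *Jag2* (chr12:112897914-112898114) and an intron of *Gm17276* downstream of *Notch3* (chr17:32117798-32117998).

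Jag1 +48.8 kb: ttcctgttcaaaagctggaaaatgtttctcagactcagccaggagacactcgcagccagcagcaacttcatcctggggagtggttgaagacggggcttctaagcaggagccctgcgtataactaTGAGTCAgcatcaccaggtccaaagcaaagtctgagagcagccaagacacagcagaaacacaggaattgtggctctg

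Jag2 +31.8 kb: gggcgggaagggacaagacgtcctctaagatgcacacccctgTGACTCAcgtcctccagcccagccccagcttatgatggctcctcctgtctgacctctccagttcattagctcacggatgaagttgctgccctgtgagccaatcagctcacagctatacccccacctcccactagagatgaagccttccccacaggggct

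Notch3 +49.0 kb: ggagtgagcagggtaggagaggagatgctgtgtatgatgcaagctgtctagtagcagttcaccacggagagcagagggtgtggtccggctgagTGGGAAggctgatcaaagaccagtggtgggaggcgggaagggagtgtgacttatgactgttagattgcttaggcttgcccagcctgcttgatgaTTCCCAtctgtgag

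The promoter regions with the largest loss of depth-scaled reads were those of *Dll1* (chr17:15376931-15377131) and *Dll3* (chr7:28302259-28302459). The *Dll1* summit shown is that of the parent list, which lies in an exon of the neighbouring gene *A930024N18Rik*.

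Dll1 −1.05 kb: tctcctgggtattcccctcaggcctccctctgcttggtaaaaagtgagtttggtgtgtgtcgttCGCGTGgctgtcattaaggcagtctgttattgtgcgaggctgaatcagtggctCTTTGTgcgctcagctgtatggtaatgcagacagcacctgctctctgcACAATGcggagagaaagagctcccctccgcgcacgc

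Dll3 −0.121 kb: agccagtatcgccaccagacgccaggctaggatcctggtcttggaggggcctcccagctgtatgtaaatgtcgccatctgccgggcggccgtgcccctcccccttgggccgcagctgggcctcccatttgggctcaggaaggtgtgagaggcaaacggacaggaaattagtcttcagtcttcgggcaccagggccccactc

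The first comparison asked how the number of accessible intervals at the receptor and ligand genes differed between the genotypes. Parent NSPCs had more intervals at *Notch1* (22 against 9), *Dll1* (9 against 5), *Dll4* (5 against 2) and *Jag1* (10 against 8). ΔSRR2–18 NSPCs had 1 interval more at *Notch3* (6 against 5) and at *Dll3* (2 against 1). Counts were equal at *Notch2* (11 in each list), *Jag2* (2) and *Notch4* (1). Over the 9 genes the ΔSRR2–18 list held fewer intervals than the parent list, although it was the longer list over the whole genome.

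**Figure D1:**
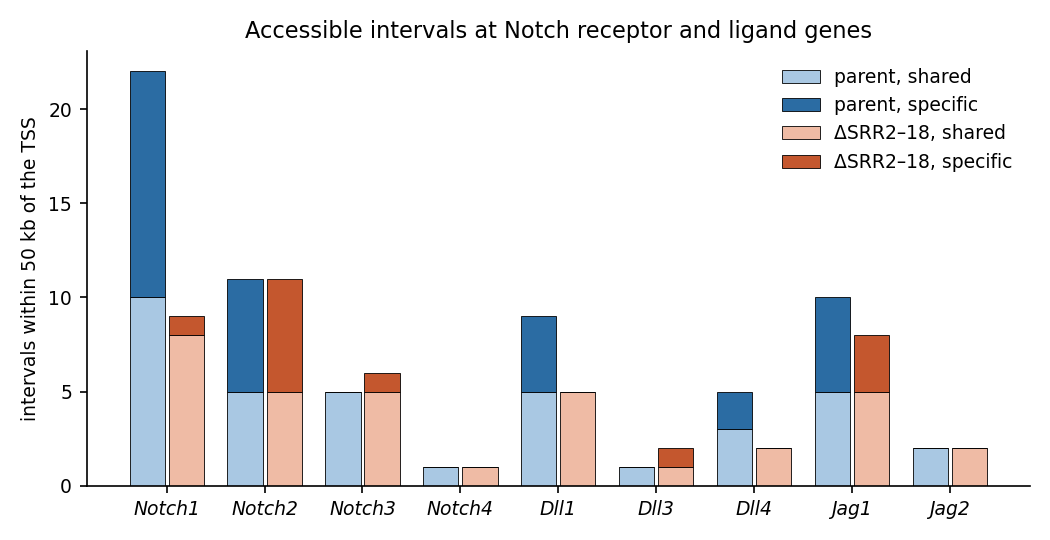
Number of intervals (vertical axis) at each gene in the parent list (blue) and the ΔSRR2–18 list (orange), with intervals shared with the other genotype in the pale part and genotype-specific intervals in the dark part of each bar. *Notch1* has 12 parent-specific intervals and 1 ΔSRR2–18-specific interval, whereas *Notch2* has 6 of each.

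Of the 66 parent intervals, 29 (43.9%, 95% Wilson interval 32.6–55.9) were parent-specific, against 45.0% of all 55017 parent intervals within 50 kb of a protein-coding TSS. The Notch genes were therefore close to the background in what the parent list alone contained. Of the 46 ΔSRR2–18 intervals, 12 (26.1%, 15.6–40.3) were specific to that list, against 53.0% of all 64666 intervals. This share lay below the background. Wilson intervals here cover counting error only, and intervals at the same gene are not independent of each other.

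Every promoter interval of the 9 genes was shared. None of 9 in the parent list was parent-specific (upper Wilson bound 29.9%), against 12.8% of all promoter intervals, and none of 9 in the ΔSRR2–18 list was specific (upper bound 29.9%), against 18.0%. The genotype-specific intervals were therefore all distal. They made up 29 of 57 distal parent intervals (50.9%, 38.3–63.4), where the background was 57.8%, and 12 of 37 distal ΔSRR2–18 intervals (32.4%, 19.6–48.5), where it was 65.2%. Introns held 18 of the 29 parent-specific intervals and 11 were intergenic. Of the 12 ΔSRR2–18-specific intervals, 8 were in introns, 3 were intergenic and 1 was in an exon.

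By reads, the parent-specific intervals were about as strong as the shared ones, with a median of 39.4 times the genome mean next to 39.7. Their median fold enrichment was lower, 5.67 next to 7.05. With reads and background of the parent list brought down to ΔSRR2–18 depth, all 29 kept a −log10 p of at least 20 and 28 kept one of at least 50, with a lowest value of 48.1. The lowest value among the ΔSRR2–18-specific intervals was 53.7. Whether the 29 would have passed the IDR filter at that depth was not tested. The 12 ΔSRR2–18-specific intervals were weaker, with a median strength of 19.6 against 31.9 for the shared ones. When absence was judged against the longer, optimal list of the other genotype, 26 of the 29 and 11 of the 12 were still absent there.

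Ranked within its own list by summit reads, the median Notch gene interval stood in the top 26.9% in parent and the top 37.1% in ΔSRR2–18 NSPCs. By fold enrichment over the local background, the medians were the top 70.8% and 64.1%. The local background differed widely along these genes. At the *Notch1* promoter it was 23.6 times the genome mean in parent and 7.53 times in ΔSRR2–18 NSPCs.

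*Notch1* (ENSMUSG00000026923.15, minus strand, chr2:26457903-26516663), a receptor gene used by neural progenitors, held the largest number of intervals among the 9 genes and the largest difference in that number. Of its 22 parent intervals, 12 had no counterpart in ΔSRR2–18 NSPCs, whereas 1 of its 9 ΔSRR2–18 intervals had none in the parent list. With 1 TSS per gene, its 5′ end, the counts were 22 in parent and 12 in ΔSRR2–18 NSPCs. Among the 17643 protein-coding genes with any assigned interval, 93 genes (0.527%, *Notch1* included) had as many parent-specific intervals. An excess of parent-specific over ΔSRR2–18-specific intervals as large as the 11 of *Notch1* was seen at 21 of them (0.119%). Both ranks are of counts, which also depend on how many intervals a gene has. As a share, the 12 of 22 stand beside 45.0% of all parent intervals within 50 kb and 57.8% of the distal ones. The 1 of 9 stands beside 53.0% of all ΔSRR2–18 intervals within 50 kb.

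Introns of *Notch1* held 8 of the 12 parent-specific intervals, at +1.97, +3.64, +7.22, +14.9, +15.9, +17.9, +24.8 and +28.2 kb. The strongest of them, at +15.9 kb (chr2:26486824-26488264), reached 6236 reads, or 161 times the genome mean, and stood in the top 1.68% of parent intervals by reads. By fold enrichment (7.89, over a local background of 20.3 times the genome mean) it stood in the top 61.2%. No ΔSRR2–18 interval assigned to *Notch1* lay downstream of +10.1 kb. Intervals nearer to the TSS of another gene were not looked at. The remaining 4 parent-specific intervals were upstream, at −15.3, −31.0, −32.0 and −37.9 kb, with strengths from 15.6 to 82.3.

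The *Notch1* promoter region (chr2:26502196-26504238) was present in both genotypes. Its strength was 133 in parent and 62.5 in ΔSRR2–18 NSPCs, a log2 ratio of −1.10 (95% counting interval −1.19 to −1.01). That is 2.14-fold lower on the read scale, but its fold enrichment over the local background was higher in ΔSRR2–18 NSPCs (log2 0.54), as that background differed more (log2 −1.64). Just inside the gene, the region at +2.85 kb went from 137 to 19.7 (log2 −2.80), and the region at −29.7 kb from 90.3 to 10.5 (log2 −3.10). By fold enrichment the log2 ratios of these regions were −0.71 and −1.04, so that the region at +2.85 kb was no longer beyond 2-fold.

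Not all of the locus lost reads. An intronic region at +9.17 kb went from 16.7 in parent to 71.4 in ΔSRR2–18 NSPCs (log2 2.10), and next to it, at +10.1 kb, lay the only ΔSRR2–18-specific interval of the gene (chr2:26493453-26493907, strength 42.8). An upstream region at −22.0 kb went from 37.0 to 103 (log2 1.48), but differed little in fold enrichment (log2 0.08), as its local background was also higher in ΔSRR2–18 NSPCs (log2 1.40). The region at +9.17 kb was higher on both scales (log2 2.40 by fold enrichment). The region at −12.7 kb, which covers the 5′ end of the *Notch1* gene record upstream of the TSS used here, had strengths of 40.5 and 29.9 (log2 −0.44). Of the 8 shared regions of *Notch1*, 3 were more than 2-fold lower, 2 were more than 2-fold higher and 3 lay within 2-fold by reads. The region at −28.2 kb, within 2-fold by reads (34.3 and 49.3, log2 0.52), was beyond it by fold enrichment (log2 2.55).

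**Figure D2:**
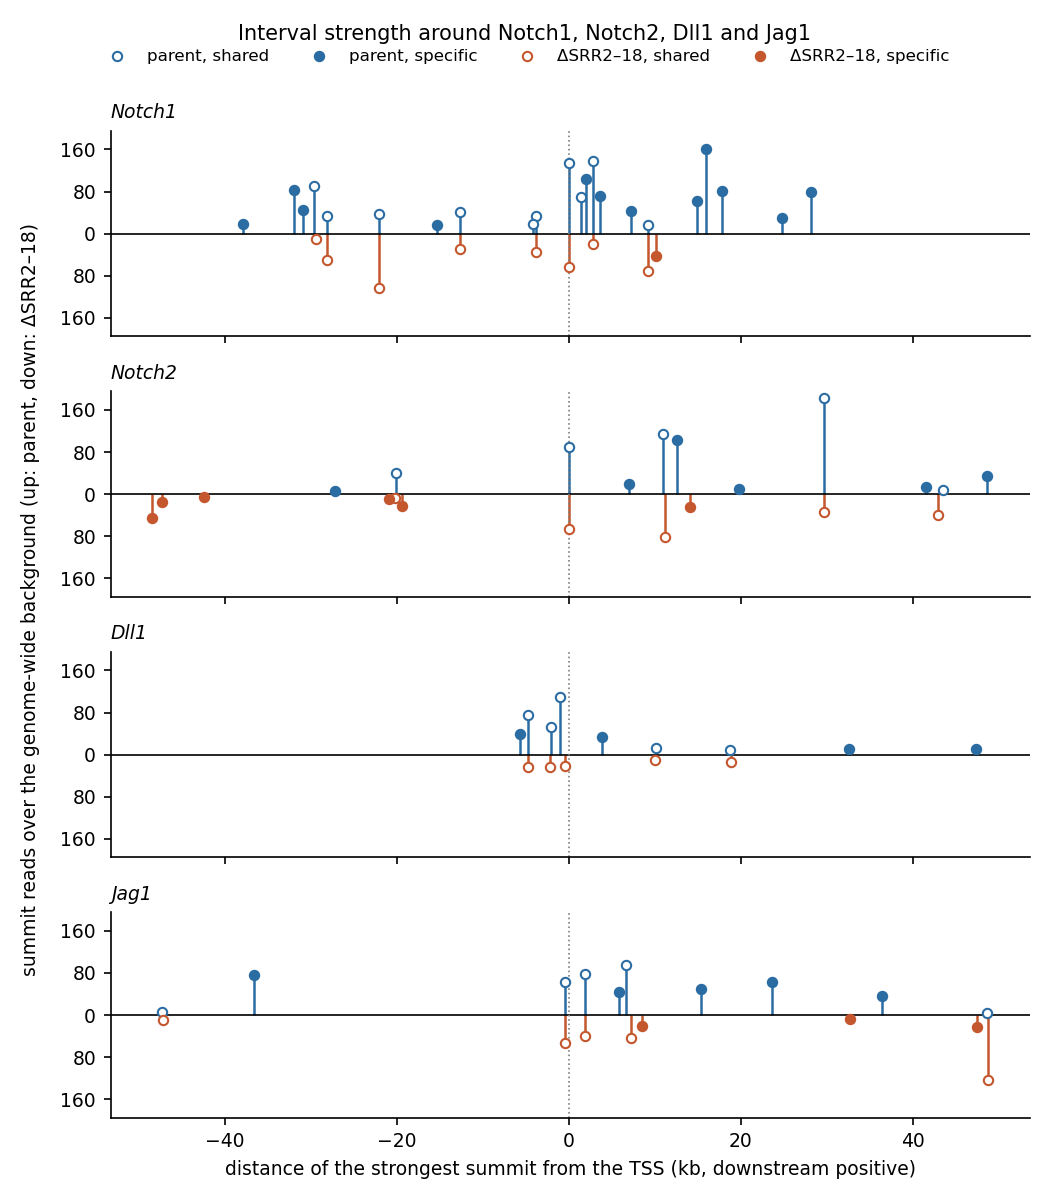
Strength of each interval (vertical axis, summit reads divided by the genome-wide background) against the distance of its strongest summit from the TSS in kb, with parent intervals drawn upwards in blue and ΔSRR2–18 intervals drawn downwards in orange, and filled circles for genotype-specific intervals. The run of parent intervals from +14.9 to +28.2 kb in *Notch1* has no ΔSRR2–18 interval below it, and in *Jag1* the tallest ΔSRR2–18 interval stands at +48.8 kb.

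*Notch2* (ENSMUSG00000027878.11, plus strand, chr3:98013527-98150361) had 5 shared, 6 parent-specific and 6 ΔSRR2–18-specific intervals. The specific intervals fell mostly on different sides of the TSS. Among the parent-specific intervals, 5 were in introns of the gene and 1 was upstream, whereas 5 of the ΔSRR2–18-specific intervals were upstream and 1 was in an intron, at +14.1 kb. In parent NSPCs the strongest specific interval was at +12.6 kb (chr3:98025771-98026622, strength 103), and in ΔSRR2–18 NSPCs at −48.5 kb (chr3:97964642-97965439, strength 44.8).

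The *Notch2* promoter region had strengths of 90.0 and 67.0 (log2 −0.43), close to the median of all shared promoter regions. Farther into the gene, the region at +29.7 kb was the strongest of all parent intervals at these genes, with 7060 reads or 182 times the genome mean, against 34.2 in ΔSRR2–18 NSPCs (log2 −2.41, −2.52 to −2.29). Its local background was also lower there (log2 −1.96), and by fold enrichment the region lay within 2-fold (log2 −0.47). The strongest ΔSRR2–18 interval of the gene was in the region at +11.0 kb, with 115 in parent and 80.5 in ΔSRR2–18 NSPCs (log2 −0.51, and 0.75 by fold enrichment). The region at −20.1 kb went from 39.7 to 8.09 (log2 −2.30, and −2.09 by fold enrichment), while ΔSRR2–18-specific intervals appeared beside it at −20.9 and −19.4 kb. The region at +43.5 kb went the other way, from 8.62 to 40.0 (log2 2.21, and 1.95 by fold enrichment). The next *Notch2* region, at 50004 bp in parent and 50029 bp in ΔSRR2–18 NSPCs, fell just outside the 50 kb limit with strengths of 87.7 and 65.2.

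*Notch3* (ENSMUSG00000038146.8, minus strand, chr17:32120820-32166852), a receptor known from vascular smooth muscle and also present in progenitors, had 5 shared intervals and no parent-specific interval. Both of its promoter regions were more than 2-fold lower in ΔSRR2–18 NSPCs, at −0.0490 kb from 66.2 to 31.0 (log2 −1.09) and at +0.766 kb from 34.5 to 13.4 (log2 −1.36). By fold enrichment both lay within 2-fold (log2 −0.51 and −0.80). The highest fold enrichment of the gene was at −6.51 kb in parent (21.8) and at +23.5 kb in ΔSRR2–18 NSPCs (22.3). These regions lay within 2-fold by reads, with strengths of 36.0 and 32.9 (log2 −0.13) and of 35.1 and 25.9 (log2 −0.44). The region at +48.6 kb went from 7.11 to 65.4 (log2 3.20), and by fold enrichment its log2 ratio was 1.21. It is the interval closest to the 50 kb limit in the ΔSRR2–18 list, 48954 bp from the TSS. A single ΔSRR2–18-specific interval was intronic, at +4.60 kb.

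*Notch4* (ENSMUSG00000015468.14, plus strand, chr17:34564268-34588503), the receptor best known from endothelium, had no promoter interval in either conservative list. Its only interval was shared, at −8.58 kb, and weak in both genotypes (7.96 in parent and 6.21 in ΔSRR2–18 NSPCs, log2 −0.36).

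The Delta-like ligand genes, which neuronal precursors use to signal to their neighbours, had 15 intervals in parent and 9 in ΔSRR2–18 NSPCs. At *Dll1* (ENSMUSG00000014773.13, minus strand, chr17:15367354-15376872) the promoter region had 4229 reads in parent and 432 in ΔSRR2–18 NSPCs, which is 109 and 22.0 times the genome mean. The log2 ratio was −2.31 (−2.45 to −2.17), or 4.95-fold lower. Only 0.963% of all shared promoter regions had a ratio as low. By fold enrichment the region lay within 2-fold (log2 −0.18), as its local background was lower in ΔSRR2–18 NSPCs by a similar factor (log2 −2.14). The summits were 577 bp apart, at −1.05 kb in parent and −0.478 kb in ΔSRR2–18 NSPCs. The parent interval, just beyond 1 kb, is therefore distal by itself, and the region counts as a promoter region through its ΔSRR2–18 summit.

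Upstream of *Dll1*, the region at −4.76 kb went from 75.0 to 23.4 (log2 −1.68) and the region at −2.13 kb from 52.9 to 23.6 (log2 −1.16). By fold enrichment these regions were higher in ΔSRR2–18 NSPCs (log2 0.43 and 0.87), and their local background went from 16.2 to 3.73 and from 17.9 to 4.32 times the genome mean. The other 4 parent intervals, at −5.68, +3.90, +32.6 and +47.4 kb, were parent-specific, with strengths from 10.5 to 39.4. ΔSRR2–18 NSPCs had no specific interval at *Dll1*, and shared regions at +10.1 kb (13.5 and 9.97) and +18.8 kb (8.03 and 14.6) were weak in both.

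*Dll3* (ENSMUSG00000003436.11, minus strand, chr7:28293553-28302238), a divergent ligand that acts within the cell, had a promoter strength of 75.2 in parent and 17.5 in ΔSRR2–18 NSPCs. Its log2 ratio of −2.10 (−2.26 to −1.94) placed it with *Dll1* at the low end, where 1.41% of shared promoter regions were as low or lower, whereas by fold enrichment it lay within 2-fold (log2 −0.88). An intronic ΔSRR2–18-specific interval stood at +2.83 kb with a strength of 19.1. *Dll4* (ENSMUSG00000027314.6, plus strand, chr2:119325784-119335962), the ligand of sprouting vessels that is also found in some neural precursors, went from 54.3 to 26.9 at its promoter (log2 −1.01, and −0.32 by fold enrichment), and had parent-specific intervals at −11.6 and −3.14 kb. The region downstream of the gene at +12.3 kb had strengths of 87.0 and 48.4 (log2 −0.84).

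The Jagged ligand genes had 12 intervals in parent and 10 in ΔSRR2–18 NSPCs. At *Jag1* (ENSMUSG00000027276.7, minus strand, chr2:137081456-137116644) the promoter region was close in the genotypes, with 63.6 and 53.3 times the genome mean (log2 −0.26). Around it, 5 of 10 parent intervals were parent-specific and 3 of 8 ΔSRR2–18 intervals were ΔSRR2–18-specific. The parent-specific ones at −36.6 kb (strength 76.4), +5.84 kb (43.5), +15.3 kb (49.5), +23.6 kb (63.7) and +36.5 kb (35.5) were all stronger than the ΔSRR2–18-specific ones, which ranged from 7.48 to 23.4.

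The largest gain at any of the 9 genes was at +48.7 kb of *Jag1* (chr2:137067476-137068307). In parent NSPCs this region had 167 reads, 4.30 times the genome mean, in the top 97.8% of intervals by reads. In ΔSRR2–18 NSPCs it had 2431 reads, 124 times the genome mean, in the top 1.81%. The log2 ratio was 4.85 (4.62 to 5.08), or 28.8-fold, and 0.0239% of shared distal regions had a larger one. By fold enrichment the log2 ratio was 1.54 and the ΔSRR2–18 interval stood in the top 40.5%, over a local background of 10.0 times the genome mean. This shared region lies within *Slx4ip*, and a ΔSRR2–18-specific interval lay beside it at +47.5 kb. Within the gene, the region at +6.67 kb went from 94.8 to 43.3 (log2 −1.13) by reads, whereas its fold enrichment was higher in ΔSRR2–18 NSPCs (log2 0.66).

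*Jag2* (ENSMUSG00000002799.6, minus strand, chr12:112907819-112929776) had a promoter region with strengths of 37.3 and 23.9 (log2 −0.64) and 1 distal region. That region, at +31.7 kb (chr12:112897492-112898354), went from 304 to 2592 reads, or from 7.83 to 132 times the genome mean (log2 4.07, 3.90 to 4.25). By fold enrichment the log2 ratio was 1.63, and the ΔSRR2–18 interval stood in the top 4.53%. Shared regions within 5 Mb of *Jag2* had a median log2 ratio of 0.54 (240 regions), while the medians around the other 8 genes lay between −0.33 and −0.08 and the median over all other chromosomes was −0.25. The part of this shift on chromosome 12 in the *Jag2* values was not tested.

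**Figure D3:**
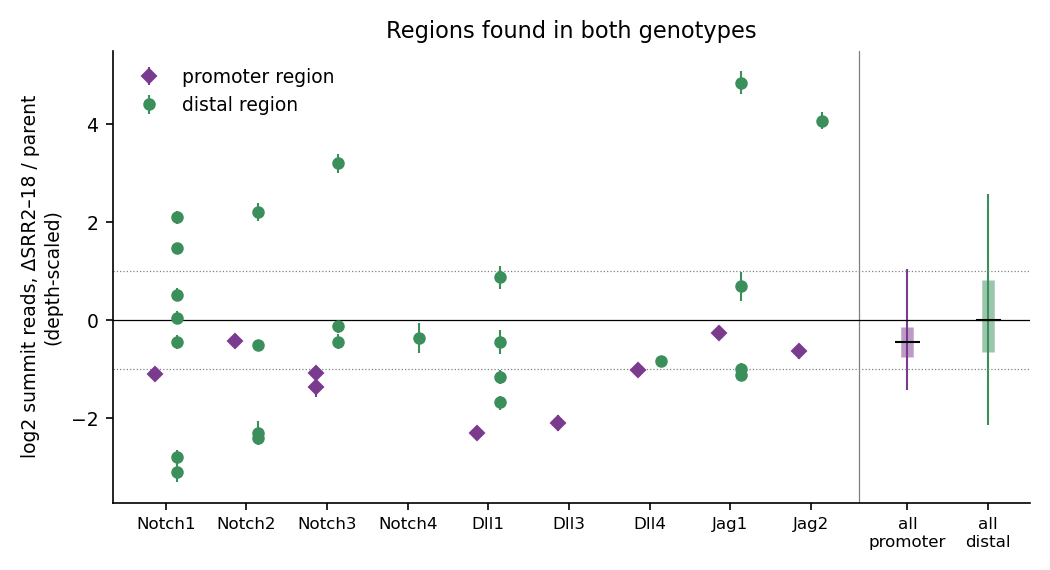
Log2 ratio of depth-scaled summit reads (ΔSRR2–18 over parent, vertical axis) at every shared region of the 9 genes, with diamonds for promoter and circles for distal regions and bars for 95% counting intervals. On the right are the median (dash), quartiles (thick bar) and 5th to 95th percentiles (thin line) of all shared regions. Dotted lines mark a 2-fold difference. The *Dll1* and *Dll3* promoters lie lowest among the promoters, and the distal regions of *Jag1* and *Jag2* lie highest.

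Taking the 34 shared regions of the 9 genes as a list, the median log2 ratio was −0.48, with −1.09 over 9 promoter regions and −0.44 over 25 distal ones. Of the promoter regions, 6 (*Notch1*, both of *Notch3*, *Dll1*, *Dll3* and *Dll4*) were more than 2-fold lower in ΔSRR2–18 NSPCs, against 13.7% of all 14015 shared promoter regions, and none was more than 2-fold higher, against 5.24%. Relative to the median of shared promoter regions rather than to the genome-wide background, *Dll1* and *Dll3* alone stayed more than 2-fold lower among the promoters. Of the distal regions, 7 were more than 2-fold lower, against 17.3% of all 25057 shared distal regions, and 6 were more than 2-fold higher, against 21.8%.

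The split of these calls depended on the scale. On the main scale, 13 regions were lower and 6 higher. Centred on the median of all shared regions it was 8 lower and 7 higher, and centred on the median of shared promoter regions 7 lower and 8 higher. With fold enrichment in place of reads it was 2 lower (*Notch1* −29.7 kb and *Notch2* −20.1 kb) and 6 higher, and no promoter region of the 9 genes was beyond 2-fold. The local background moved with the reads, with a median log2 ratio of −0.59 at the 34 regions against −0.14 at all shared regions. The samples hold no control library, so this background is made of reads of the same cultures around each summit. Fold enrichment is therefore not an independent measure, as open regions nearby enter the background. Read intervals are for counting error only, and pileup heights are not counts of independent fragments.

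Sequence words for factors of the pathway and its tissue were counted within 100 bp of each strongest summit, on either strand. They were TGGGAA for RBPJ, ACAATG or ACAAAG for SOX proteins, TGAGTCA or TGACTCA for AP-1, and CACGTG or CACGCG for HES and HEY repressors. No word contains another. In parent NSPCs the RBPJ word was found at 20 of 66 Notch gene intervals (30.3%, Wilson interval 20.6–42.2), against 20.5% of all intervals within 50 kb of a protein-coding TSS. In ΔSRR2–18 NSPCs it was found at 16 of 46 (34.8%, 22.7–49.2), against 20.0%. With a window of 50 bp these RBPJ shares were 18.2% in parent and 17.4% in ΔSRR2–18 NSPCs, and no background is given for that window. The HES/HEY words stood at 10 parent (15.2%, background 9.03%) and 5 ΔSRR2–18 intervals (10.9%, background 8.19%).

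The SOX words were found at 16 of 29 parent-specific intervals (55.2%, 37.5–71.6), against 36.2% of all parent-specific intervals, and at 8 of 37 shared parent intervals (21.6%), against 19.5%. At *Notch1* they stood at 7 of 12 parent-specific and 1 of 10 shared intervals, and at *Dll1* at all 4 parent-specific and 4 of 5 shared intervals. *Notch2* had them at 4 of 6 parent-specific and 2 of 5 shared intervals. The genes differed, as *Jag1* had them at 1 of 5 parent-specific and 1 of 5 shared intervals, and *Dll4* at none of its 2 parent-specific and 3 shared intervals. The window at +15.9 kb of *Notch1* printed above holds the RBPJ word and 2 SOX words. At the ΔSRR2–18-specific intervals the SOX words were found at 5 of 12 (41.7%, 19.3–68.0), against 24.0%.

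The AP-1 words were at none of the 29 parent-specific intervals (upper Wilson bound 11.7%), against 2.40% of all parent-specific intervals. They were at 4 of 12 ΔSRR2–18-specific ones (33.3%, 13.8–60.9), against 42.6%, and both backgrounds lay within the Wilson intervals. At shared intervals the shares were above the background in both lists. The AP-1 words were at 6 of 37 shared parent intervals (16.2%, 7.65–31.1), against 6.63%. In the ΔSRR2–18 list they were at 8 of 34 shared intervals (23.5%, 12.4–40.0), against 10.7%. Promoter and distal intervals were not set apart in these shares. With a window of 50 bp, no parent Notch gene interval held an AP-1 word. Over distal intervals, shared or specific, the AP-1 words were at 6 of 57 in parent (10.5%, 4.91–21.1), against 5.63%. In ΔSRR2–18 NSPCs they were at 12 of 37 (32.4%, 19.6–48.5), against 34.3%. Among the gained regions printed above, those of *Jag1* and *Jag2* each hold an AP-1 word, and that of *Notch3* holds the RBPJ word at 2 places. The gained *Notch2* region at +43.5 kb holds an AP-1 word at its ΔSRR2–18 summit, and the gained *Notch1* regions at +9.17 and −22.0 kb hold none. AP-1 words also stood at regions that lost reads, at +29.7 kb of *Notch2* and, at the ΔSRR2–18 summit, at +6.67 kb of *Jag1*. The mean GC content of the windows was 54.7% at parent-specific Notch gene intervals against 51.6% at all parent-specific intervals, and 49.5% against 47.7% for the ΔSRR2–18-specific ones. Its part in the shares was not tested.

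The 36 other genes of the pathway had 186 parent intervals, of which 94 (50.5%, background 45.0%) were parent-specific, and 190 ΔSRR2–18 intervals, of which 97 (51.1%, background 53.0%) were specific. The genes named next are those of the 36 with the most genotype-specific intervals. How many of all genes had as many was not counted for them. *Maml2*, a Mastermind coactivator gene, had 19 specific intervals of 31 in parent and 5 of 16 in ΔSRR2–18 NSPCs. *Rbpj* itself had 2 of 4 and 16 of 18. *Fbxw7*, which encodes the ubiquitin ligase subunit that turns over the Notch intracellular domain, had 2 of 6 and 13 of 18. *Dlk1*, a non-canonical ligand gene, had none of 2 and 12 of 14, and lies on chromosome 12 like *Jag2* (median log2 ratio of shared regions within 5 Mb, 0.58).

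**Figure D4:**
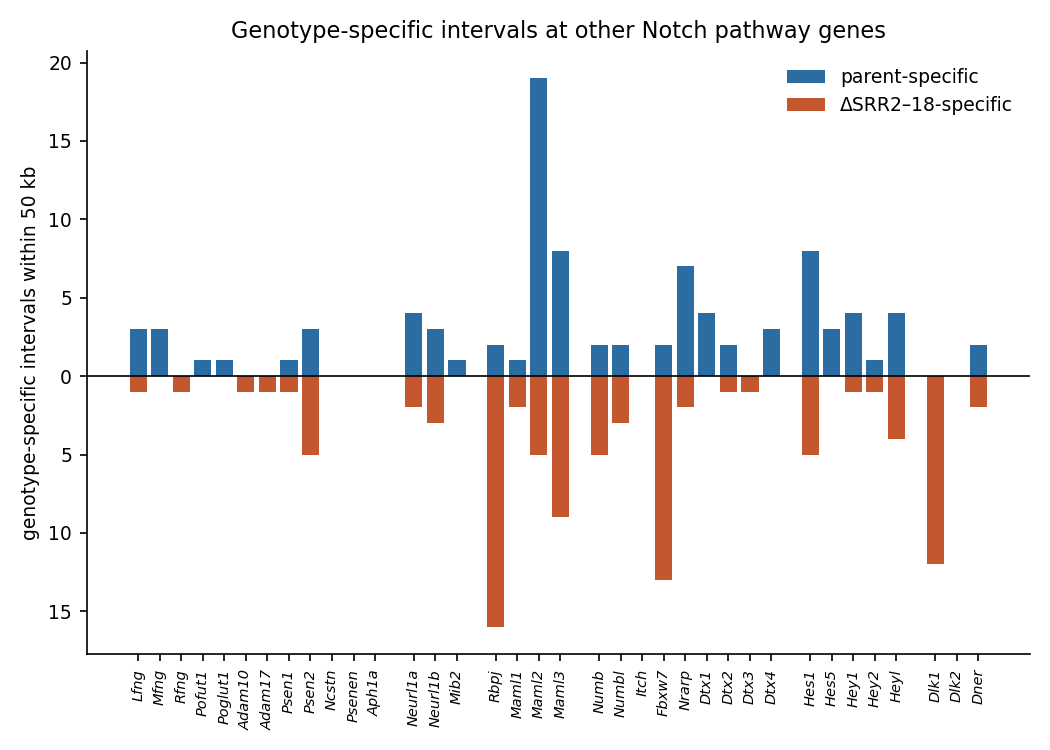
Number of genotype-specific intervals (vertical axis) within 50 kb of 36 other Notch pathway genes, parent-specific upwards in blue and ΔSRR2–18-specific downwards in orange, grouped into processing enzymes, ligand endocytosis, nuclear complex, inhibitors, targets and other ligands from left to right. *Maml2* reaches 19 parent-specific intervals, and *Rbpj* 16 ΔSRR2–18-specific intervals.

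The direct target genes had 20 of 37 parent intervals that were parent-specific (54.1%, background 45.0%) and 11 of 29 ΔSRR2–18 intervals that were specific (37.9%, background 53.0%). The promoter of *Hes5*, a repressor gene that Notch switches on in neural progenitors, went from 158 to 21.0 times the genome mean (log2 −2.91), and that of *Hey1* from 134 to 52.5 (log2 −1.35). The *Hes1* promoter had 100.0 and 90.2 (log2 −0.15) and that of *Hey2* 157 and 80.8 (log2 −0.96). *Heyl* had no promoter interval in the parent list and one of strength 27.1 in the ΔSRR2–18 list. *Nrarp*, a target that feeds back on the receptor complex, went from 93.5 to 36.3 (log2 −1.36), and *Mfng*, a glycosyltransferase gene whose product modifies the receptors, from 72.7 to 4.83 (log2 −3.91). Of the 32 pathway genes with a promoter interval in both lists, 9 were more than 2-fold lower in ΔSRR2–18 NSPCs, against 12.6% of all 11838 such genes, and 1 (*Dtx1*) was more than 2-fold higher, against 4.27%. Their median log2 ratio was −0.68, against −0.46 over all such genes, and centred on that median 4 were more than 2-fold lower and 3 more than 2-fold higher. By fold enrichment the promoters of *Mfng* (log2 −2.16), *Hes5* (−0.87), *Hey1* (−0.45) and *Hey2* (−0.42) were also lower in ΔSRR2–18 NSPCs, whereas those of *Nrarp* (0.47) and *Hes1* (0.08) were higher. On that scale *Mfng* alone of the 32 was more than 2-fold lower. *Numbl* (1.56), *Dtx1* (1.19) and *Rbpj* (1.09) were more than 2-fold higher, so the split of the calls again depended on the scale.

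The genes whose counts were most like those of *Notch1*, by Euclidean distance over the numbers of shared parent, parent-specific and ΔSRR2–18-specific intervals among 17643 genes, were *Cxxc5* (distance 2.45), *Plekha7* (2.83) and *Myo18a* (3.16). *Cxxc5* had 11 shared parent, 11 parent-specific and 3 ΔSRR2–18-specific intervals, where *Notch1* had 10, 12 and 1.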

How the data were processed

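The authors processed the reads of 3 cultures per genotype with the ENCODE ATAC-seq pipeline on mm10, called peaks with MACS2, and filtered them by irreproducible discovery rate (IDR). They deposited a conservative and an optimal peak list per genotype, pooled over cultures. Each deposited peak has an IDR score, a fold enrichment (the ratio of the summit pileup to its local background), a −log10 p and a summit offset. The conservative lists were used.

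MACS2 computes both values from the summit reads and the local background with a Poisson model, and the pair was inverted to recover them. In the parent list 99.9993% of peaks gave whole reads (tolerance 0.05), and in the ΔSRR2–18 list every peak did. The lowest background of a list was taken as its genome-wide mean. Rows with the same interval were joined, and its summit with the highest fold enrichment placed it, whereas a shared region took the summit with the most reads. TSSs came from the GENCODE M21 basic annotation and sequences from GRCm38.p6. Reads of the *M. castaneus* allele can map less often to mm10, and alleles were not separated.

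Shares carry 95% Wilson intervals, and ratios carry exact binomial (Clopper-Pearson) intervals of the read counts. A difference was called beyond 2-fold, without a test. The text names all 9 genes with their promoter regions, strongest and strongest genotype-specific intervals and regions beyond 2-fold, the pathway genes with the most genotype-specific intervals, the target genes, and the 3 genes most like the member with the most intervals. Other intervals, and the promoters of *Mfng*, *Nrarp*, *Dtx1*, *Numbl* and *Rbpj*, were named after their values were seen. The genes and lists were chosen with earlier results of these data known. Alternatives were the optimal lists, merged intervals, an IDR score of at least 830, other overlap rules, a distance of 10 kb, 1 TSS per gene, a shortened ΔSRR2–18 list, common −log10 p thresholds, other scalings and a 50 bp motif window. Ranks by fold enrichment and by −log10 p were added after seeing the data. Read recovery, overlaps and the motif scan were tested on simulated data. Python 3.11.15, pandas 2.3.3 and SciPy 1.17.1 were used.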

Additional observations from a re-analysis of the deposited data

How the results depend on the processing

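No paired analysis was possible because the lists are pooled over the cultures, and for the same reason no culture could be left out. The interval counts of 66 in parent and 46 in ΔSRR2–18 NSPCs moved with a gene distance of 10 kb (29 and 21) and, in ΔSRR2–18 NSPCs, with a list shortened to the parent number (29). The specific shares of 43.9% and 26.1% moved to 59.1% and 41.3% with 50% reciprocal overlap and to 27.6% and 14.3% within 10 kb, and the parent share moved to 62.1% against the shortened list. Merging, IDR, TSS and −log10 p settings and the optimal lists kept these totals within 1.5 times and the shares within their Wilson intervals, but moved counts of single genes, in ΔSRR2–18 NSPCs *Dll4* from 2 to 4 and *Notch4* from 1 to 2 (optimal lists) or 0 (IDR), and in both lists *Jag2* from 2 to 1 (1 TSS per gene). At shared regions, fold enrichment reversed the median log2 ratio (0.24 in place of −0.48) and the sign at 4 of 19 regions beyond 2-fold, which were *Dll1* −2.13 kb (0.87), *Dll1* −4.76 kb (0.43), the *Notch1* promoter (0.54) and *Jag1* +6.67 kb (0.66), and left 2 regions beyond 2-fold lower in place of 13. Centring left 8 (all shared regions) or 7 (promoters). Within 10 kb, 18 of the 34 regions remained, 1 of them beyond 2-fold higher in place of 6. Median ranks moved from the top 26.9% to 70.8% by fold enrichment and 42.2% by −log10 p in parent, and from 37.1% to 64.1% by fold enrichment in ΔSRR2–18 NSPCs. A motif window of 50 bp, which holds fewer bases, lowered the parent shares of RBPJ (18.2%), SOX (19.7%) and AP-1 (0%) and the ΔSRR2–18 shares of RBPJ (17.4%) and HES/HEY (2.17%). No background shares over all intervals are given for this window. Whether the Notch gene shares stayed above the background there was therefore not tested. The lists hold no values per culture, which limits every ratio here to pooled values.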

Other observations

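The optimal lists held Notch gene intervals that the conservative lists lack, 6 in parent and 7 in ΔSRR2–18 NSPCs. The ΔSRR2–18 ones include an interval over the *Notch4* TSS (chr17:34563991-34565028), a gene whose promoter was in neither conservative list, and counterparts of parent-specific intervals at −3.1 kb of *Dll4*, at 35.9 kb of *Jag1* and at 48.5 kb of *Notch2*. The parent ones include a counterpart of the ΔSRR2–18-specific *Notch1* interval at 10.1 kb (chr2:26493540-26493833). These intervals were named after their values were seen.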
